A study of Mus musculus with 8 samples.

Results

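The genes described here are 32 components of TGF-beta and BMP signalling, chosen by their function: ligands, receptors, Smad proteins, their inhibitors, nuclear corepressors and the Id genes. Every probe set of the array whose annotation gave 1 of these symbols was a member, 75 of 45037 probe sets, and a gene was represented by its probe set with the highest mean over the 8 arrays. All 32 genes were on the array, out of 18193 genes with such annotation. A probe set was tested when its mean exceeded 2.72, the median of all probe set means on the log2 scale. This filter kept 40 of the 75 probe sets and 24 of the 32 genes.

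The arrays compared wild-type embryos with Crebbp+/- embryos, which have 1 mutant copy of Crebbp, both on the genetic background C57BL/6. Crebbp encodes the acetyltransferase and coactivator CBP, which Smad proteins recruit, and the title of the series concerns myelodysplastic syndrome and defects of DNA repair. RNA came from haematopoietic stem cells sorted from fetal liver as Sca-1+, lineage-negative, AA4.1+ and c-Kit++, with 15 embryos combined per preparation and 12 ng of RNA amplified. The age was labelled 14 dpc among the characteristics, whereas the free description had 14.5 (dpc, days post coitum). Each genotype had 2 numbered samples with 2 arrays each, so n = 2 samples per genotype after averaging arrays. Nothing in the labels says that the samples came from separate litters, and p-values then measure only the spread between these preparations.

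TGF-beta, activins and BMPs are secreted dimers that bring type II and type I receptor kinases together at the cell surface. TGF-beta and activin receptors phosphorylate Smad2 and Smad3, BMP receptors phosphorylate Smad1 and Smad5, and both groups enter the nucleus with Smad4. Smad6, Smad7 and the Smurf ubiquitin ligases restrain the pathway, and Ski, Skil and the Tgif proteins repress transcription at Smad-bound genes. In blood formation TGF-beta is best known for holding stem cells in quiescence, and BMP4 for its part in the emergence of stem cells in the embryo.

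Markers of the sorted population were well above background, and some hepatocyte transcripts were measured beside them. All 8 measured markers of the stem and progenitor gate passed the filter, among them Kit, Cd93 (AA4.1) and Ptprc. Ly6a (Sca-1) was not analysed here. Of 14 stromal markers 2 passed, with Col1a1 below the filter, and of 15 endothelial markers 9 passed, with Tek the strongest at 9.09 in wild type and Cdh5 and Kdr below the filter. Hepatocyte markers, of which 7 of 10 passed, summed on the linear scale to 72.6 (sample 1) and 935 (sample 2) in wild type, against 336 and 485 in Crebbp+/-. The 5' signal of the Gapdh control falls behind its 3' signal as RNA degrades. Its log2 differences were -1.22 and -2.59 in wild type and -0.89 and -1.88 in Crebbp+/-. Sample 2 was thus lower in each genotype, and wild type was lower than Crebbp+/- within each sample number. The part of these measures in the results, between genotypes as between sample numbers, was not tested. Crebbp itself had 12.07 and 11.41 in the wild-type samples and 11.95 and 11.66 in the Crebbp+/- samples, and its paralog Ep300 had 9.14 and 9.19 against 9.39 and 9.43. Neither passed the test, and the part of the gene that the mutant allele lacks is not in the labels, so these probe sets do not check the genotype. In these bulk samples, fewer cells of a type and less RNA per cell cannot be told apart.

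In wild-type stem cells, the receptor and Smad machinery gave clear signals while most ligands did not. Of 5 ligand genes, Tgfb1 alone passed the filter, at 7.16 ± 0.86 in wild type (log2 mean with SD over 2 samples). Tgfb2, Tgfb3, Bmp4 and Inhba had wild-type means of 2.73, 2.23, 2.24 and 2.26, at the level that the normalization assigns to probe sets without signal. At these brightest probe sets the filter level was exceeded on 1 array, by Tgfb2 in wild-type sample 2 at 3.46. The strongest member signals came from Smad1 (11.44 ± 0.42), Acvr2a (10.89 ± 0.03), Smad3 (10.52 ± 0.32), Bmpr2 (10.32 ± 0.31), Smad4 (10.21 ± 0.45) and Tgfbr1 (9.54 ± 0.16). Signals of different probe sets depend on their probes, so this order does not rank transcripts.

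The type II receptors Tgfbr2, Acvr2a and Bmpr2 and the type I receptors Tgfbr1 and Acvr1b passed the filter, Acvr2b (a type II receptor, at 2.57 ± 0.02) did not, and the BMP type I receptors were at or near background. Bmpr1a, a BMP type I receptor with 6 probe sets, had 2.59 ± 0.25 in wild type for the brightest of them. Acvrl1, the type I receptor of endothelial cells, had 2.34, and Bmpr1b, another BMP type I receptor outside the member list, had 2.36. Acvr1, which also serves BMP ligands, had 3.17 ± 0.48 and exceeded the filter level on 7 of 8 arrays of both genotypes. Smad6, the inhibitory Smad specific to BMP receptors, was below the filter at 2.51 ± 0.03, whereas Smad7, which blocks both branches, had 6.73 ± 0.87. A signal at background on such an array does not show that a transcript was absent. The 8 genes below the filter, which are Tgfb2, Tgfb3, Bmp4, Inhba, Bmpr1a, Acvrl1, Acvr2b and Smad6, had means over all arrays between 2.22 and 2.62 and were not tested.

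**Figure D1:**
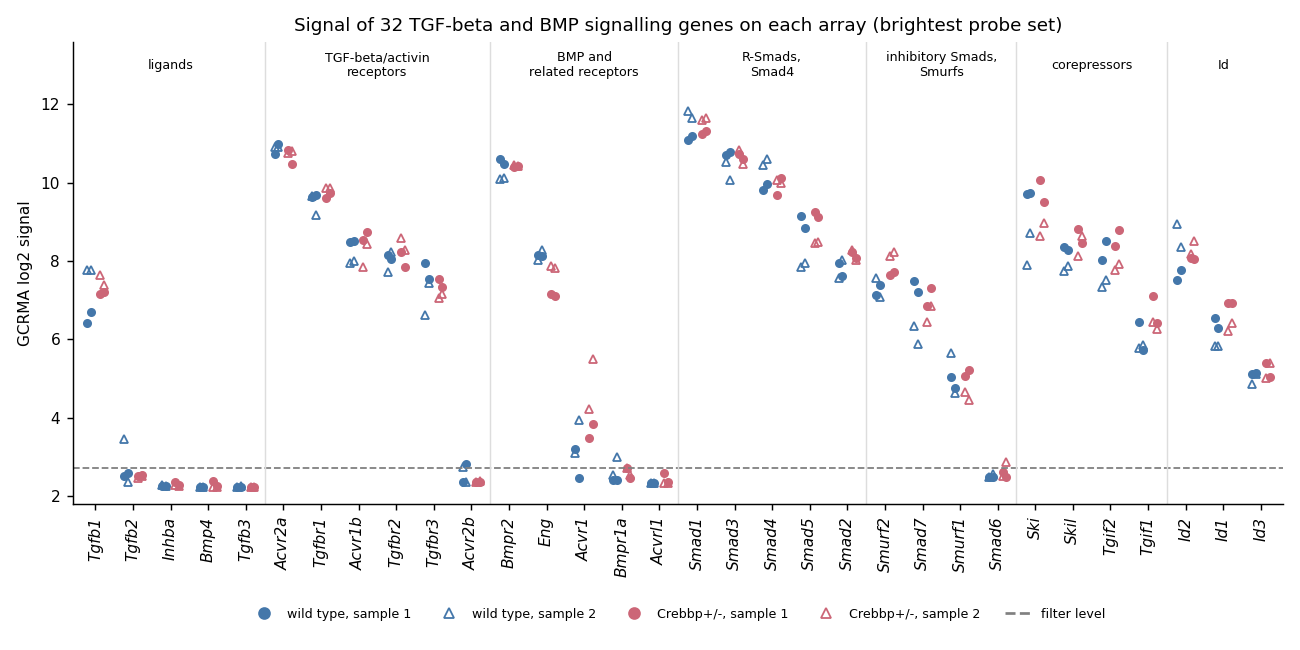
GCRMA log2 signal (y axis) of the brightest probe set of each of 32 member genes (x axis, grouped by role), with 1 point per array, colour for genotype and symbol for sample number. The dashed line is the filter level of 2.72, and the means of 8 genes lie below it, including every ligand but Tgfb1, although single arrays of some exceed it.

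No member passed the test between genotypes. In the limma fit over all 22518 tested probe sets, 0 were called at an adjusted p under 0.05 (0.0% of those tested), the lowest adjusted p being 0.991, and adjusted p of the members ran from 0.991 to 0.999. An unadjusted p under 0.05 was reached by 0 of the 24 members at their brightest probe set, against 2.67% of 10600 tested genes. Over all tested probe sets 1.23% had such a p with a positive difference and 3.61% with a negative one. The 24 differences ran from -0.66 to 1.09 log2 units in Crebbp+/- minus wild type, with a median SE of 0.31. Positive differences were found for 19 members (79.2%), against 56.9% of all tested genes, and the median was 0.17 against 0.042. Within the samples numbered 1 the member median was 0.14, and within those numbered 2 it was 0.35. Medians of all tested genes within each number were not computed, so these are not shown to be particular to the members. The member median was 0.35 without wild-type sample 1 and 0.07 without wild-type sample 2. No permutation test of single genes was made, since 2 samples a side allow no exact two-sided p below 0.33.

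Both Crebbp+/- samples lay above both wild-type samples for 7 members (29.2%, against 17.1% of all tested genes) and below them for 2, Acvr2a and Eng (11.0% of all tested genes). Either way the share among all tested genes was 28.1%. All 4 arrays of Crebbp+/- lay above all 4 of wild type for Smurf2 alone (3.68% of all tested genes) and below them for Eng alone (1.99%), against 5.67% either way. A difference of at least 0.5 in size was found for 4 members, Acvr1, Eng, Smurf2 and Tgif1, counted before rounding, by which Id1 (0.50) falls just under (16.7%, against 12.0% of all tested genes). The sign was the same within both sample numbers for 14 of 24 members (58.3%, against 61.9%).

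**Figure D2:**
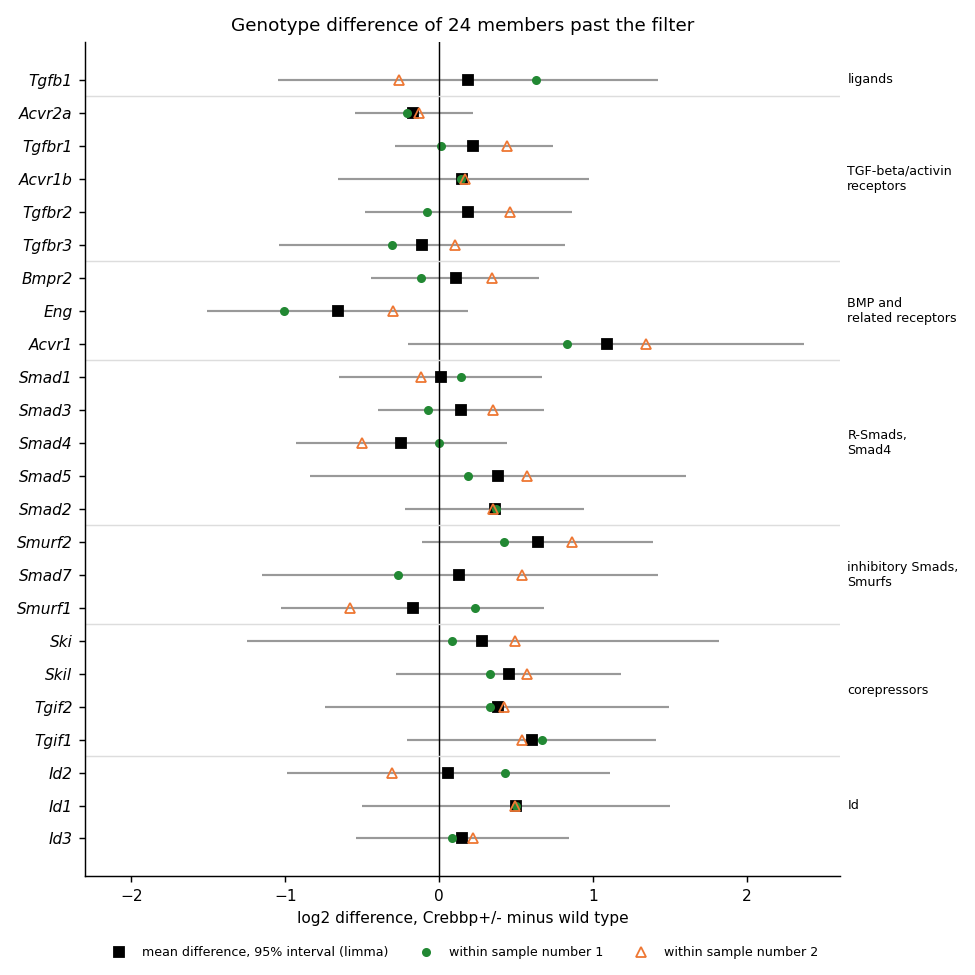
Difference in log2 signal, Crebbp+/- minus wild type (x axis), of the 24 members past the filter, with black squares for the mean over 2 samples per genotype, lines for the 95% confidence interval of the limma fit, and coloured symbols for the difference within each sample number. All 24 intervals include 0, and Acvr1 and Eng hold the ends of the range at 1.09 and -0.66.

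At the brightest probe sets of Tgfb1 and the 3 TGF-beta receptors no difference exceeded 0.22 in size. Tgfb1, the ligand made by blood cells, had 6.56 and 7.77 in wild-type samples 1 and 2 and 7.19 and 7.51 in the Crebbp+/- samples, a difference of 0.19 (SE 0.47). The wild-type samples enclosed both Crebbp+/- samples. Tgfbr1, the type I kinase of the TGF-beta receptor, had 9.66 and 9.43 in wild type and 9.67 and 9.86 in Crebbp+/-, a difference of 0.22 (SE 0.20), and the closest samples of the genotypes were 0.01 apart. Its second tested probe set, close to the filter at 3.70 and 2.95 in wild type and 4.61 and 3.10 in Crebbp+/-, differed by 0.53 (SE 0.58). Tgfbr2, the type II kinase that binds the ligand first, differed by 0.19 (SE 0.26), with -0.08 and 0.46 within samples 1 and 2. Tgfbr3, the betaglycan coreceptor, had 7.76 and 7.02 against 7.45 and 7.12 and differed by -0.11 (SE 0.36).

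Neither activin receptor past the filter passed the test. Acvr2a, a type II receptor of activins and BMPs, had sample means of 10.87 and 10.92 in wild type and of 10.66 and 10.79 in Crebbp+/-. Its difference of -0.17 (SE 0.15, 95% interval -0.55 to 0.22) was the same in direction within both sample numbers, at -0.21 and -0.13, although arrays of the genotypes overlapped. A second, dimmer probe set of Acvr2a differed by -0.43 (SE 0.27). Acvr1b, the activin type I receptor, differed by 0.15 (SE 0.31), with 0.14 and 0.17 within the sample numbers.

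Of the BMP and related receptors, Eng had the lowest and Acvr1 the highest difference of all members. Eng encodes endoglin, a TGF-beta coreceptor found on endothelium and on long-term blood stem cells. Its brightest probe set had 8.15, 8.13, 8.02 and 8.29 on the wild-type arrays and 7.16, 7.10, 7.88 and 7.82 on the Crebbp+/- arrays. Every Crebbp+/- array was below every wild-type array, with sample 1 further below than sample 2, at -1.01 and -0.30. The mean difference was -0.66 (SE 0.33, 95% interval -1.51 to 0.19, limma unadjusted p = 0.102). It was -1.02 without Crebbp+/- sample 2 and -0.30 without Crebbp+/- sample 1. The second probe set of Eng had sample means of 6.07 and 6.24 in wild type and of 5.65 and 6.17 in Crebbp+/-, a difference of -0.24 (SE 0.32), and its arrays overlapped.

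Values of cell type markers, some of them lower in Crebbp+/-, are given beside Eng. Of 15 endothelial measured markers 9 passed the filter, 6 of them with a negative difference, and 0 passed the test. Their summed linear signal was 1353 and 1060 in wild type and 1121 and 1018 in Crebbp+/-, and the median difference of the 9 was -0.27. Cdh5 had sample means no higher than 2.58, and Kdr had 2.21 in both wild-type samples, whereas Tek had 9.29 and 8.88 in wild type and 9.18 and 9.11 in Crebbp+/-. Markers named next were chosen after their values were seen. Vwf, made by endothelium and megakaryocytes, differed by -1.64 (SE 0.32, limma unadjusted p = 0.00417, adjusted p = 0.991), Robo4 by -0.57 (SE 0.28) and Tie1 by -0.73 (SE 0.32), the last with -1.17 and -0.29 within samples 1 and 2. Arrays of the genotypes did not overlap for Vwf and Robo4. Nor did they for the megakaryocyte gene Gp9, at -1.21 (SE 0.31), or for 2 of the 8 gate markers, the stem cell transcription factors Mecom at -0.38 (SE 0.14) and Hlf at -0.54 (SE 0.20). None of these passed the test (limma adjusted p = 0.991 each). Over all tested genes, 1.99% had every Crebbp+/- array below every wild-type array. Past the filter, positive and negative differences numbered 3 and 6 for endothelial, 1 and 4 for megakaryocyte and 5 and 3 for gate markers. Among all tested genes 56.9% were positive. The largest positive one was that of Flt1, an endothelial marker near background, at 0.70 (SE 0.39). Flt1 passed the filter only through Crebbp+/-, with means of 2.61 in wild type and 3.32 in Crebbp+/-. Sox18 (2.96 and 2.69) and Pf4 (2.83 and 2.66) passed only through wild type. The direction of such markers carries no weight, and the counts above include them. The summed signal of the gate markers was 16138 and 15357 in wild type and 14828 and 15243 in Crebbp+/-. That of the 10 megakaryocyte markers was 193 and 198 against 110 and 128, a sum that includes Gp9 and Vwf and changed mainly through them. Of the rest past the filter, Itga2b differed by -0.03 (SE 0.25), Itgb3 by 0.24 (SE 0.26) and Pf4 by -0.17 (SE 0.18). The part of all these markers in the Eng result was not tested.

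Acvr1 encodes the type I receptor ALK2, which transmits BMP signals to Smad1 and Smad5. Its arrays read 3.19, 2.46, 3.09 and 3.93 in wild type and 3.47, 3.85, 4.21 and 5.50 in Crebbp+/-, and the genotypes overlapped at 1 wild-type array. The difference was 1.09 (SE 0.49, 95% interval -0.20 to 2.37, limma unadjusted p = 0.0807), with 0.83 and 1.34 within samples 1 and 2. Its size ranged from 0.49 without Crebbp+/- sample 2 to 1.69 without Crebbp+/- sample 1. The other probe sets of Acvr1, at means of 2.31 and 2.22, were not tested. Bmpr2, the BMP type II receptor, had 10.54 and 10.10 in wild type and 10.42 and 10.44 in Crebbp+/-, a difference of 0.11 (SE 0.21). Its second probe set differed by 0.53 (SE 0.29), with 0.30 and 0.76 within the sample numbers.

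The Smads that carry the signal differed by between -0.25 and 0.38. Smad1 and Smad5 serve BMP receptors. Smad1 had 11.14 and 11.74 in wild type and 11.29 and 11.61 in Crebbp+/-, and its difference of 0.01 (SE 0.25) held opposite signs within samples 1 and 2. The second Smad1 probe set had 10.09 and 9.71 in wild type and 10.21 and 10.16 in Crebbp+/-, a difference of 0.29 (SE 0.20) with 0.12 and 0.46 within the sample numbers. Its Crebbp+/- arrays lay above the wild-type ones, the closest of each both at 10.11 after rounding. Smad5 had 9.00 and 7.91 in wild type and 9.19 and 8.48 in Crebbp+/-, a difference of 0.38 (SE 0.47), smaller than the wild-type SD of 0.77. The other tested probe sets of Smad5 differed by 0.30 (SE 0.22) and 0.32 (SE 0.83).

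Smad2 and Smad3 serve TGF-beta and activin receptors, and Smad4 is their common partner. Smad2 had 7.79 and 7.80 in the wild-type samples and 8.16 and 8.15 in the Crebbp+/- samples, a difference of 0.36 (SE 0.22, 95% interval -0.22 to 0.94) that was 0.37 and 0.35 within samples 1 and 2. Sample means of Smad2 were thus nearly equal within a genotype, while its arrays met at their ends, the highest of wild type at 8.03 and the lowest of Crebbp+/- at 8.02. Its second probe set differed the other way, by -0.21 (SE 0.38). Smad3 had 10.75 and 10.30 against 10.68 and 10.65, a difference of 0.14 (SE 0.21). Smad4 had 9.89 and 10.53 against 9.90 and 10.03, a difference of -0.25 (SE 0.26), and its dimmer probe sets differed by 0.06 (SE 0.27) and 0.42 (SE 0.40).

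Among the inhibitors, Smurf2 was higher in Crebbp+/- at each of its 3 probe sets. Smurf2 encodes a ubiquitin ligase that Smad7 brings to the TGF-beta receptor and that also marks Smad proteins for degradation. Its brightest probe set had 7.13, 7.39, 7.58 and 7.07 on the wild-type arrays and 7.64, 7.71, 8.13 and 8.23 on the Crebbp+/- arrays. Every Crebbp+/- array lay above every wild-type array. The difference was 0.64 (SE 0.29, 95% interval -0.11 to 1.39, limma unadjusted p = 0.0788), with 0.42 and 0.86 within samples 1 and 2. It ranged from 0.38 without Crebbp+/- sample 2 to 0.89 without Crebbp+/- sample 1.

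The second Smurf2 probe set read 7.26, 6.02, 6.80 and 5.94 in wild type and 7.35, 7.39, 7.32 and 7.27 in Crebbp+/-. Arrays 1 and 2 of each wild-type sample lay far apart there, and the Crebbp+/- arrays close together. Its difference of 0.83 (SE 0.27) had the lowest unadjusted p of all 40 tested member probe sets, 0.0292, with a limma adjusted p of 0.991. It was also the only 1 of the 40 with an unadjusted p under 0.05 (2.5%, against 4.84% of all tested probe sets). The third probe set differed by 0.49 (SE 0.72), with 0.04 and 0.93 within samples 1 and 2.

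Smurf1, the related ligase, differed by -0.17 (SE 0.33), with sample means of 4.90 and 5.13 in wild type and 5.14 and 4.55 in Crebbp+/-. Smad7 had 7.35 and 6.12 in wild type and 7.07 and 6.65 in Crebbp+/-, so the Crebbp+/- samples lay between the wild-type ones. Its difference was 0.13 (SE 0.49) and that of its second probe set -0.11 (SE 0.31). Smad6 had 2.49 and 2.53 against 2.55 and 2.68, with 1 of 8 arrays above the filter level, and was not tested.

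The upstream sequence of Smurf2 and Eng is shown because they were the members whose arrays did not overlap between genotypes at the brightest probe set. RefSeq windows on GRCm38.p6 of 250 bases before to 50 after the start were searched on both strands for CAGAC, the core of the Smad-binding element, for GGCGCC of BMP-responsive elements and for TGACG, the half-site of the cAMP response element through which CREB recruits CBP. Matches are in capitals. The window of Smurf2, chr11:106920666-106920965 on the minus strand, held 2 matches to CAGAC, which begin at -203 and 28 from the start, and 2 to GGCGCC, at -234 and -147. That of Eng, chr2:32646345-32646644 on the plus strand, held 2 to CAGAC, at -214 and -127, and none to the others.
Smurf2: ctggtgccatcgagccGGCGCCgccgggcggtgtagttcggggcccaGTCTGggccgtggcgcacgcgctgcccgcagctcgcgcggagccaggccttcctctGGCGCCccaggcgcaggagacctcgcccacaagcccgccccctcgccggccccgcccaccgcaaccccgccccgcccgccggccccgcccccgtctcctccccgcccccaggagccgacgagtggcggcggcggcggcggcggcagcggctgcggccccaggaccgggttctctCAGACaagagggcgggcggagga
Eng: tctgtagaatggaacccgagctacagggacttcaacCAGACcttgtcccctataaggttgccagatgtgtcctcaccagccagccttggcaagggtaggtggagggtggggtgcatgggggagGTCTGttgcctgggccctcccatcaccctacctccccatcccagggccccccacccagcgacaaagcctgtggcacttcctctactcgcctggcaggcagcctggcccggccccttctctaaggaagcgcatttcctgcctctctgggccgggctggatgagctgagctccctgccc
CAGAC occurred in 49.6% of all 32851 windows of this length, GGCGCC in 11.9% and TGACG in 20.8%, so these matches are a description of the letters only. A window of this length was available for 24 of the 32 member genes. They are not the 24 genes past the filter, since they include Smad6, Bmpr1a, Tgfb2 and Acvr2b, which were not tested. Of the 24 genes with a window, 11 had a match to CAGAC, 8 to GGCGCC and 4 to TGACG. Counted by window, as the shares above are, 13, 9 and 4 of their 31 windows had a match. The complete cAMP response element TGACGTCA was in the windows of 0 members and in 1.79% of all windows, and the Smad palindrome GTCTAGAC was in that of Smad6 alone and in 0.213% of all.

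All 4 nuclear corepressors had positive differences within both sample numbers, and 0 of 4 passed the test. Of all tested genes 56.9% had a positive mean difference, and 61.9% had the same sign within both sample numbers. The share positive within both was not computed, so the count is not a result about corepressors. Tgif1, a homeodomain corepressor of Smad2, had 6.45, 5.73, 5.78 and 5.85 on the wild-type arrays and 7.10, 6.42, 6.44 and 6.26 on the Crebbp+/- arrays. A single wild-type array overlapped the Crebbp+/- range. Its difference was 0.60 (SE 0.31, 95% interval -0.21 to 1.41), with 0.67 and 0.54 within samples 1 and 2. Skil, which encodes SnoN, had sample means of 8.31 and 7.81 in wild type and of 8.64 and 8.38 in Crebbp+/-, a difference of 0.45 (SE 0.28).

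Tgif2 had 8.26 and 7.42 in wild type and 8.59 and 7.84 in Crebbp+/-, a difference of 0.38 (SE 0.43), and its second probe set differed by 1.13 (SE 1.00). For both probe sets of Tgif2, the differences within samples 1 and 2 were close, at 0.33 and 0.42 and at 1.10 and 1.15, while sample 2 was far below sample 1 in both genotypes. Ski had 9.72 and 8.31 against 9.80 and 8.80, a difference of 0.28 (SE 0.59) with 0.08 and 0.49 within samples 1 and 2, and its second probe set differed by 0.24 (SE 0.60). For Ski the direction was lost when a sample was left out, with -0.42 without wild-type sample 2 and -0.22 without Crebbp+/- sample 1, and Tgif2 was at -0.04 without wild-type sample 2. Tgif1 and Skil kept theirs, with ranges of 0.40 to 0.81 and of 0.20 to 0.70 over all omissions of a sample or array.

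**Figure D3:**
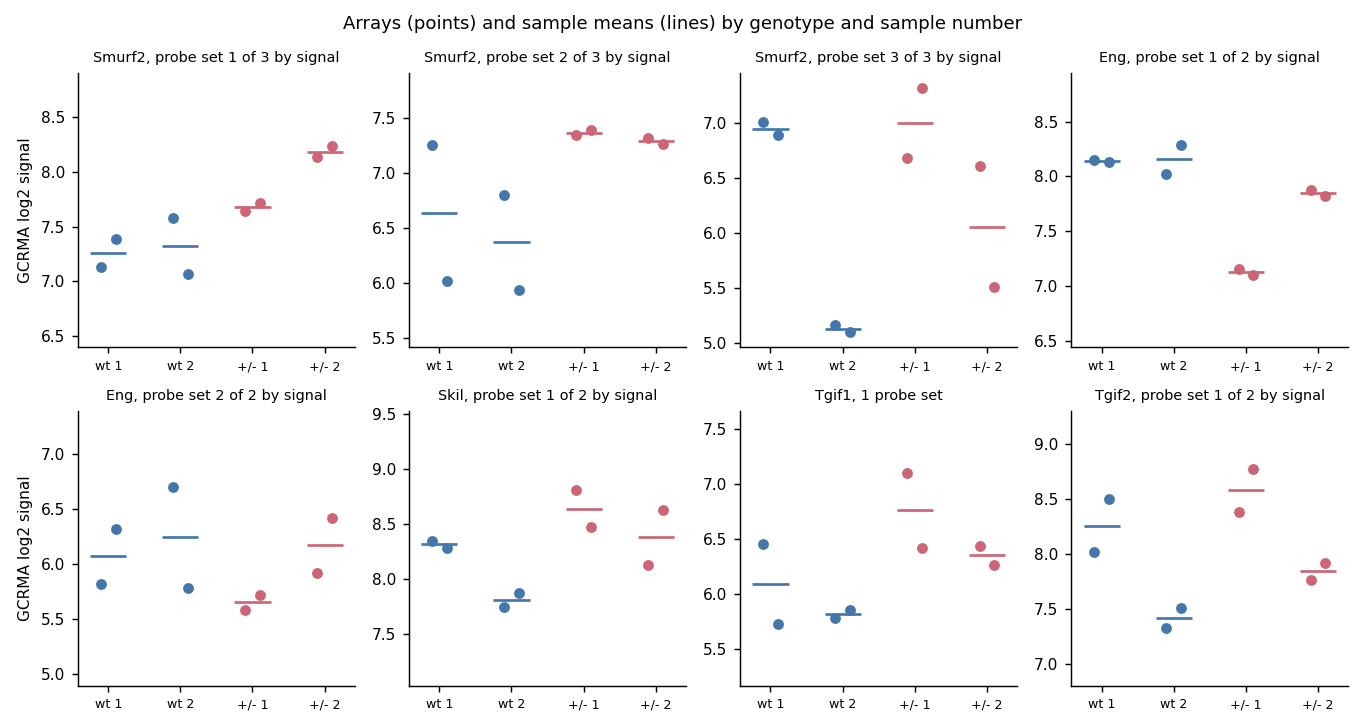
GCRMA log2 signal (y axis) of 8 probe sets on each array (points) with the mean of each numbered sample (lines), in wild type (blue) and Crebbp+/- (red). At the brightest probe sets of Smurf2 and Eng the genotypes do not overlap, and for the third Smurf2 probe set and Tgif2 sample 2 lies below sample 1 in both genotypes.

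The Id genes encode helix-loop-helix inhibitors of differentiation and are textbook BMP targets, and 0 of 3 passed the test between genotypes. Id1 read 6.55, 6.30, 5.83 and 5.82 on the wild-type arrays and 6.94, 6.92, 6.21 and 6.43 on the Crebbp+/- arrays. Its difference of 0.50 (SE 0.38, 95% interval -0.50 to 1.5) was 0.50 and 0.49 within samples 1 and 2, while sample 2 lay below sample 1 by -0.60 in wild type and by -0.61 in Crebbp+/-. It was 0.19 without Crebbp+/- sample 1, 0.20 without wild-type sample 2 and 0.80 without wild-type sample 1 or without Crebbp+/- sample 2. Id2 had sample means of 7.64 and 8.66 in wild type and of 8.07 and 8.34 in Crebbp+/-, a difference of 0.06 (SE 0.40) with 0.43 and -0.31 within the sample numbers, and its second probe set differed by 0.15 (SE 0.25). Id3 had 5.14 and 4.99 against 5.21 and 5.21, a difference of 0.15 (SE 0.26). At the brightest probe sets Id1 and Id2 varied more between the 2 samples of wild type, with SDs of 0.42 and 0.72, than Id3, with 0.10. The second Id2 probe set, however, had an SD of 0.03.

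The RefSeq upstream windows of Id2 and Id3 are shown as targets of the pathway that passed the filter here. Id1 also passed, but no window of it is shown. That of Id2, chr12:25096043-25096342 on the minus strand, had 1 match to GGCGCC, at -231. That of Id3, chr4:136143572-136143871 on the plus strand, had 2 to CAGAC, at -167 and -68, and 1 to TGACG, at -170, the first and last of which overlap. Capitals mark the matches as above.
Id2: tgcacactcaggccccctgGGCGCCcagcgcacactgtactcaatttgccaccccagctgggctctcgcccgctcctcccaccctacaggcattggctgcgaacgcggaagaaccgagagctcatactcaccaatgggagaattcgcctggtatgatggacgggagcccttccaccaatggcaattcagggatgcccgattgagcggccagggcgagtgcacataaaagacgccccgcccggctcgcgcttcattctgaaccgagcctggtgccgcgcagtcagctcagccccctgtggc
Id3: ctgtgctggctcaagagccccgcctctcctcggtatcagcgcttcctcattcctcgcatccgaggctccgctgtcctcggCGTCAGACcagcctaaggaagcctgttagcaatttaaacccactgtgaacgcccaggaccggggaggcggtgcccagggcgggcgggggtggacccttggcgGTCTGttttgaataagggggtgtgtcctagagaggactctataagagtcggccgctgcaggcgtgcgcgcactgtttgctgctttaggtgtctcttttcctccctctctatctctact

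Probe sets of the same member mostly had the same direction. Of 13 members with at least 2 tested probe sets, 10 had 1 direction at all of them (76.9%, against 47.7% of 4927 such genes). Of these members 8 were positive and 2 negative, against 1511 and 838 among the 4927 genes. The negative members were Acvr2a and Eng, and the 3 with mixed signs were Smad2, Smad4 and Smad7. Over the 40 tested probe sets 31 differences were positive and 9 negative. The share of positive differences over all tested probe sets was not computed. Probe sets of 1 gene are not independent, so this count adds no support for a direction.

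The numbered samples differed from each other within a genotype. In a limma fit with genotype and sample number as terms, 4 of 24 members differed between sample numbers at an adjusted p under 0.05 (16.7%, against 10.7% of all tested genes and 9.81% of all tested probe sets). Ski was lower in sample 2 by -1.20 (SE 0.16, limma adjusted p = 0.0178), Smad5 by -0.90 (SE 0.17, adjusted p = 0.0286) and Tgif2 by -0.79 (SE 0.17, adjusted p = 0.0399). Smad1 was higher in sample 2 by 0.46 (SE 0.10, adjusted p = 0.0399). In each genotype the direction was the same for these 4 genes, from -1.41 and -1.0 for Ski to 0.59 and 0.33 for Smad1 in wild type and Crebbp+/-. Lower in sample 2 and called were 3 members, against 6.84% of all tested genes, and higher and called was 1, against 3.85%. An unadjusted p under 0.05 was reached by 12 members (50%, against 30.7% of tested genes and 28.6% of tested probe sets). The count of calls fell to 0 without array 2 of wild-type sample 1, and without either array of wild-type sample 2. It was 2 without array 1 of wild-type sample 1 (Ski and Smad5), 2 without array 1 of Crebbp+/- sample 2 (the same genes) and 1 without array 2 of that sample (Ski). It was 0 with no filter, without the intensity trend or with genotype left out as a term, and 2 (Ski and Tgif2) with probe sets of a gene averaged. In the settings with 0 members called, 0 of 10600 tested genes were called too, except without array 2 of wild-type sample 2 (1.98% of genes). The Gapdh difference given above also differed between the sample numbers, and the hepatocyte sum did so more in wild type than in Crebbp+/-. The summed signal of 11 macrophage markers, 3 of them past the filter, was 1008 and 1847 in samples 1 and 2 of wild type and 724 and 2027 in Crebbp+/-. Most of each sum came from Csf1r, the macrophage growth factor receptor, which myeloid progenitors also express. Csf1r was higher in sample 2 by 1.27 (limma adjusted p = 0.0178). Also past the filter were Cd68, at 0.17 (SE 0.29), and C1qb, at 1.06 (SE 0.23, limma adjusted p = 0.0411). C1qb exceeded the filter level on only 3 of 8 arrays. The part of these measures in the result was not tested.

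Several further members had sizeable differences between sample numbers that did not pass the test. Id2 and Tgfb1 were higher in wild-type sample 2 than in sample 1 by 1.01 and 1.21, and in Crebbp+/- by 0.27 and 0.32. Smad7 was lower by -1.23 in wild type and by -0.42 in Crebbp+/-. Lower in sample 2 were 15 members, against 46.4% of all tested genes. For 18 of 24 members the direction was the same in both genotypes (75%, against 73.1% of all tested genes). The median size of the difference between sample numbers was 0.38 for members and 0.28 for all tested genes, against 0.21 and 0.18 for the difference between genotypes. Probe sets of a member often disagreed about the sample number. Of the 13 members with at least 2 tested probe sets 5 had 1 direction (38.5%, against 42.8% of all such genes). Smad1 was higher in sample 2 by 0.46 at its brightest probe set and lower by -0.21 at the next, and the 3 probe sets of Smad5 had -0.90, 0.14 and -1.65.

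**Figure D4:**
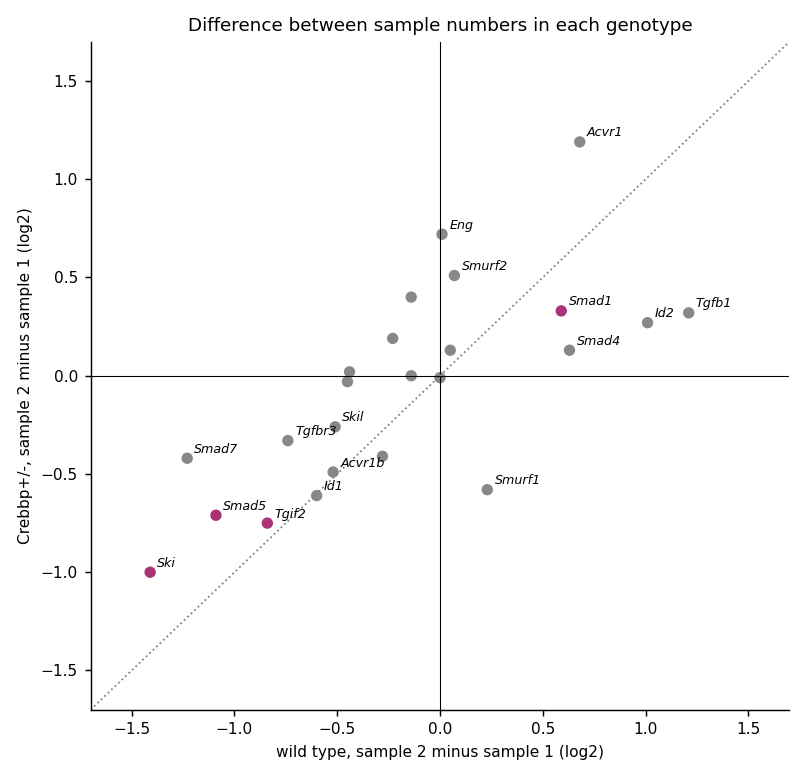
Sample 2 minus sample 1 in log2 signal for the 24 members past the filter, in wild type (x axis) and in Crebbp+/- (y axis), with the dotted line where both are equal and purple for the 4 members past the test of sample number. Ski, Smad5 and Tgif2 lie in the lower left and Smad1 in the upper right, and Smurf1 has opposite signs, 0.23 and -0.58.

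Other genes of the pathway, 108 in all, were taken from lists of further ligands, receptors, extracellular and intracellular regulators and targets. Of these 97 were measured and 52 passed the filter. None of the 52 passed the test. Positive differences numbered 33 and negative ones 19, where 56.9% of all tested genes were positive, and the median was 0.10 against 0.042. An unadjusted p under 0.05 was reached by 1 of the 52 (1.92%, against 2.67% of all tested genes). That gene was Runx3, a transcription factor that partners Smads, which had 7.67 and 7.84 in wild type and 8.37 and 8.52 in Crebbp+/-, a difference of 0.69 (SE 0.23, limma unadjusted p = 0.0318).

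Of 19 further measured ligands 1 passed the filter, Bmp1, a protease named for its copurification with BMPs, with a difference of 0.29 (SE 0.18). Of 8 receptors and coreceptors 2 passed, the decoy receptor Bambi at 0.16 (SE 0.57) and Neo1, a coreceptor partner, at -0.18 (SE 0.31). Of 17 latency proteins and antagonists 8 passed, with Crim1 at -0.41 (SE 0.28) and Twsg1 at 0.68 (SE 0.66) among them. Twsg1, a BMP-binding protein, had 10.94 and 9.21 in wild type and 11.24 and 10.27 in Crebbp+/-. Of 37 intracellular regulators, Crebbp and Ep300 among them, 33 passed, 27 positive and 6 negative. For these counts and those of the targets below, 56.9% of all tested genes were positive. After Runx3 the lowest p of the regulators belonged to Usp15, a deubiquitinase of the TGF-beta receptor and Smads, at 0.68 (SE 0.34). Of 17 further targets 8 passed, 2 positive and 6 negative, with Cdkn1c, a cell cycle inhibitor of quiescent stem cells, at -0.82 (SE 0.46; -1.73 and 0.09 within samples 1 and 2) and Tgfbi, a matrix protein, at -0.32 (SE 0.25).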

How the data were processed

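The deposited table held log2 signals of 45101 probe sets on 8 Affymetrix mouse arrays, which the authors made with GCRMA, per the submitters' processing notes. Its version was not given in the sources used here. After removal of 64 control probe sets, names came from the platform annotation, with 34945 probe sets of 1 symbol, 932 of several and 9160 of none, and the GRCm38.p6 gene table changed 0 symbols. The array median lay between 2.65 and 2.70. Log2 values were averaged over the 2 arrays of a sample. R 4.3.3 and limma 3.58.1 served for the linear model and its moderated test (eBayes, trend on mean intensity) over all 22518 probe sets past the filter, with Benjamini-Hochberg adjustment and a threshold of 0.05. Residual degrees of freedom in the genotype fit were 2, and 4.75 after moderation. The fits with sample number as a further term, including the test of sample number, left fewer. The number of arrays limits the precision. Members, lists and tests were chosen with earlier results of these data known. Full values are given for the 5 lowest p in each direction, the 6 strongest wild-type signals, Smad6, Smad7, the Id genes and Eng, and the 2 lowest p of each further list are named. Alternatives covered the unit of replication, sample number as a block, filter, floor, normalization, variance model, probe set choice and omission of each sample and array. Those for the sample number were chosen after seeing the data. Promoter windows are from RefSeq.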

Additional observations from a re-analysis of the deposited data

Results flagged for a closer look

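Smad1, Bmpr2 and Tgfb1 had opposite genotype differences in the 2 sample numbers, with both Crebbp+/- arrays above both wild-type arrays in 1 number and below them in the other. The share of all tested genes with this pattern was not computed, so whether it is more frequent among members is unknown. Smad1 differed by 0.14 in number 1 and by -0.12 in number 2, Bmpr2 by -0.12 and 0.34, and Tgfb1 by 0.63 and -0.26. With 1 sample per genotype and number, the difference between numbers was not tested.

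A single wild-type array stood apart from the other 3 for Tgfbr1, with 9.18 against 9.63 for the next, for Tgif1, with 6.45 against 5.85, and for Id3, with 4.87 against 5.12. Both genotypes of all 24 members were screened. The rule flags about 1 in 20 groups of 4 independent values by chance. These arrays are nested in samples, so that rate need not hold here.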

How the results depend on the processing

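No alternative called a member between genotypes, and the lowest adjusted p of a member was 0.16. Of 523 member differences recomputed under 22 alternatives, 492 kept their direction and 31 reversed. Smad1 was at -0.02 with quantile normalization and Smad4 at 0.08 with the mean of its probe sets. Leaving out a sample or an array gave ranges of -0.29 to 0.31 for Smad1, -0.45 to 0.57 for Id2, -0.47 to 0.26 for Tgfbr3, -0.42 to 0.79 for Tgfb1, -0.09 to 0.37 for Smad3, -0.11 to 0.33 for Bmpr2, -0.56 to 0.07 for Smad4, -0.42 to 0.99 for Ski, -0.17 to 0.92 for Smad5, -0.10 to 0.41 for Acvr1b, -0.04 to 0.80 for Tgif2, -0.48 to 0.75 for Smad7, -0.01 to 0.39 for Tgfbr2 and -0.47 to 0.12 for Smurf1. The member median ran from 0.07 to 0.35 over these omissions, in which a lone sample is assumed to vary like the other genotype. Of the members that kept their direction, Id1 ran from 0.19 to 0.80, Id3 from 0.05 to 0.24, Tgfbr1 from 0.10 to 0.35 and Acvr2a from -0.25 to -0.08. Unadjusted p under 0.05 was reached by 4 members with arrays taken as independent (8.66% of tested genes), which also called 1 probe set, by 2 with the sample as a random block (4.13%), by 1 with no filter (3.64%) and by 0 to 1 over the omissions. Same-numbered samples deviated alike (r = 0.554 across probe sets), but 2 pairs cannot show that the numbers pair the samples. Under the replicate block by sample number 5 members, Acvr1, Smurf2, Eng, Skil and Tgif1, had an unadjusted p under 0.05 (20.8%, against 14.2% of tested genes), and none was called. Calls for sample number were 8 with independent arrays (33.3%, against 23.0% of tested genes), 12 of 24 with the random block (against 32.2%), 8 of 19 in the upper 25% of probe sets (42.1%, against 31.6%), 2 with the mean of probe sets (8.33%, against 2.97%), 0 without genotype as a term, 0 with no filter, 0 without a trend (each 0 of all tested genes), and 0 to 3 with 1 array left out. The cause was not tested. Genes near background have no reliable size of difference.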
